A study of Mus musculus with 12 samples.

Results

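Intronic non-repeat peaks are stretches of open chromatin that are annotated to an intron, with no repeat and no CpG island named for them. They were picked from the merged list of 38244 ATAC peaks of C2C12 myotubes by the authors' own annotation: the entry had to start with "intron", the detailed entry had to name neither a repeat nor a CpG island, and the mean over the 6 libraries had to reach 5 tags. Of 13865 peaks annotated to an intron, 2010 held a repeat and 936 a CpG island, and 119 of the other 10919 fell below the mean of 5 tags. The remaining 10800 peaks are described here, beside the 37358 peaks of every kind with a mean of at least 5 tags. The annotation was not checked along the whole length of each peak. Parts of a peak may therefore lie outside the intron or in a repeat or CpG island, and 278 of the 10800 overlapped a window around a gene start. The gene whose transcript the annotation names was taken as the host gene, and 10778 of the 10800 peaks could be matched in this way to 4663 host genes.

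The series compared C2C12 myotubes after 24 h in medium conditioned by Colon-26 (C26) tumour cells with control myotubes, by ATAC-seq in 3 libraries each. It also compared skeletal muscle of C57BL/6 mice injected under the skin with 500000 Lewis lung carcinoma (LLC) cells with that of mice given PBS, by RNA-seq in 3 libraries each, with tissue taken on day 22. C2C12 is a mouse myoblast line of C3H origin, and all cultures, control ones included, were differentiated in 2% horse serum for 4 to 7 days. The cell type entry for the cultures reads myoblast, the muscle and the age of the mice are not named, and the libraries of a group are labelled only by number. Tests here can speak only for the spread among these numbered libraries, which may be technical where cultures were seeded together.

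ATAC-seq uses a transposase that cuts where DNA is not wrapped in nucleosomes, so the number of read ends in a region follows its accessibility. Introns of vertebrate genes hold many enhancers, which bind lineage and signal-dependent factors and may act on the host gene or on another gene far away. In muscle, introns are known to carry enhancers bound by the MyoD and MEF2 families. Medium from C26 cells is a common culture model of the muscle loss seen in cancer cachexia.

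Only part of the DNA under these peaks can be shown, since the RefSeq tables used here (GRCm38.p6, the assembly that mm10 represents) hold sequence around gene starts. Of 32851 start windows, each with 250 bases before and 50 after a start, 85 lay whole inside 79 intronic non-repeat peaks, and 278 of these peaks overlapped a window. The examples below, chosen after their values were seen, show start regions that sit in an intron: one that opened, one that closed, and others that passed the test at most with one of the 2 scalings described below. Each line gives the 250 bases before the start on the gene's own strand, and capitals mark matches, on either strand, to the motifs searched.
Gm35763: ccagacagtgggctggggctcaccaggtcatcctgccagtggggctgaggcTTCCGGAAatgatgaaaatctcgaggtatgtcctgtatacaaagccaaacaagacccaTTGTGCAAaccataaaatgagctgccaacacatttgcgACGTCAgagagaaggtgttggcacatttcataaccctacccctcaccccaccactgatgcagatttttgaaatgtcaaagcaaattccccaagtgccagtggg
Ccdc9: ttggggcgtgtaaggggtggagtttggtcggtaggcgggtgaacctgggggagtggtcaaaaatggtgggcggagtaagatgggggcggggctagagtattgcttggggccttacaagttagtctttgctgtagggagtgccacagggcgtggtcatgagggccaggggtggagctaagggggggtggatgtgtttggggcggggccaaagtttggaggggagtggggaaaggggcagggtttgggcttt
Gm38597: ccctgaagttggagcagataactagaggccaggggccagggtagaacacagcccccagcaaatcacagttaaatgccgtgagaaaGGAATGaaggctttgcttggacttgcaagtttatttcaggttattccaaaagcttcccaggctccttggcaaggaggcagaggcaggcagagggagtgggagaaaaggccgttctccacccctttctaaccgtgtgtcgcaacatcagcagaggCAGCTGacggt
Spop: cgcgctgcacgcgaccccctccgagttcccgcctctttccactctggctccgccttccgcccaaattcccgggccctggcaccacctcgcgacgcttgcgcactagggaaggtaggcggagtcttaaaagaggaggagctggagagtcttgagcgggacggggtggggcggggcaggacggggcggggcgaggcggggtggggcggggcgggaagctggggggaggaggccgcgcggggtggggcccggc

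The Gm35763 stretch (chr5:149584290-149584539, minus strand) lies in intron 13 of 22 of Wdr95. It holds an ETS motif (CCGGAA) on both strands in an overlapping run, a C/EBP motif (TTGCNNAA) and a CREB and ATF motif (TGACGT). Its peak had 46.8, 27.4 and 51.9 tags in C26 medium libraries, against 21.5, 7.76 and 16.3 tags in control libraries, with no overlap (log2 difference 1.47 ± 0.41 SE, limma adjusted p = 0.0188). The Ccdc9 stretch (chr7:16286018-16286267, minus strand) lies under a peak in intron 1 of 13 of that gene and holds none of the motifs. That peak went the other way, with 83.9, 81.9 and 87.6 tags in C26 medium libraries, against 294, 121 and 176 tags in control libraries (log2 -1.12 ± 0.33 SE, adjusted p = 0.0335).

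The Gm38597 stretch (chr19:56977551-56977800, plus strand) lies in intron 1 of 20 of Afap1l2, a gene whose first intron also held one of the clearest rises described below. It has an E-box (CAGCTG), a form that MyoD-family factors bind, and a TEAD motif (GGAATG). Its peak had 103, 104 and 116 tags in C26 medium libraries, against 234, 143 and 173 tags in control libraries, and did not pass the test (log2 -0.74 ± 0.33 SE, adjusted p = 0.134), nor did it with median of ratios (log2 -0.20, adjusted p = 0.0883). The Spop stretch (chr11:95413833-95414082, plus strand), from the gene of a ubiquitin ligase adaptor, is rich in G and C and holds none of the motifs. Its peak in intron 1 of 9 had 54.6, 41.0 and 52.2 tags in C26 medium libraries, against 163, 67.8 and 92.9 tags in control libraries (log2 -1.03 ± 0.36 SE, adjusted p = 0.0777), and it passed with median of ratios alone (log2 -0.50, adjusted p = 0.000331).

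Across the 85 windows inside intronic non-repeat peaks, CAGCTG was found in 23.5%, against 13.0% of all 32851 windows. TEAD letters were found in 16.5% against 12.6%, AP-1 letters (TGANTCA) in 9.41% against 6.75%, ETS letters in 14.1% against 12.0% and the CCAAT box in 42.4% against 33.8%. MEF2 letters were found in 3.53% against 3.2%. STAT (TTCNNNGAA, 5.88% against 7.02%), RUNX (TGTGGT, 12.9% against 14.0%), C/EBP (8.24% against 9.56%), CREB and ATF (4.71% against 6.47%) and the other E-box (CAGGTG, 11.8% against 17.2%) were less frequent in these windows than in all windows. The NF-kB, glucocorticoid receptor and NFI motifs had no match in the 85 windows and were rare in all windows (0.356%, 0.387% and 0.0365%), so nothing can be read from their absence in 85 windows. A CTCF match was found in 1.18% against 0.551%. With 85 windows these shares are a description, and a match is not a bound site.

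The libraries held 12.8, 14.4 and 18.2 M tags in C26 medium, against 11.2, 14.8 and 10.1 M tags in control medium (M, tags times 1e6), and the deposited values are scaled to 10 M library tags. Peaks took 13.0%, 12.0% and 13.5% of the tags in C26 medium libraries, against 27.0%, 13.1% and 17.9% in control libraries. Control replicate 1 stood apart, with more than any other library in its peaks. On the library-tag scale the median log2 difference of all tested peaks was -0.54, and with median-of-ratios scaling, which sets the typical peak equal between libraries, it was -0.02. The first scaling asks how the share of library tags in a peak differed, the second how a peak differed relative to other peaks. Counts of calls for the peaks as a whole are given on both, and some splits below with median of ratios alone. Promoter peaks were found at 4 of 10 muscle genes (Myod1, Des, Tnnt3 and Chrna1, with mean values of 16.8 to 84.8 tags) and not at Myog, Myf6, Acta1, Mymk, Cdh15 or Mef2c. None was found at the 6 blood, 4 endothelial, 6 epithelial, 3 fat or 3 nerve and glia marker genes.

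Intronic non-repeat peaks took a larger part of the tags in peaks after C26 medium. They held 24.71%, 24.97% and 25.39% of the tags in tested peaks in C26 medium libraries (25% ± 0.345, SD, n = 3), against 22.98%, 23.17% and 22.81% in control libraries (23% ± 0.179, SD, n = 3). Every C26 medium library lay above every control library, control replicate 1 included, and the difference of 2.04 percentage points was larger than the spread within either group. Promoter peaks held 29.1%, 28.81% and 28.28% in C26 medium libraries, against 32.34%, 32.02% and 32.61% in control libraries. Intergenic peaks without a repeat or a CpG island held 23.18%, 23.28% and 23.69% in C26 medium libraries, against 21.81%, 21.7% and 21.45% in control libraries. As shares of all library tags, the intronic peaks took 3.21%, 2.99% and 3.42% in C26 medium and 6.21%, 3.03% and 4.08% in control medium, where the groups overlapped.

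**Figure D1:**
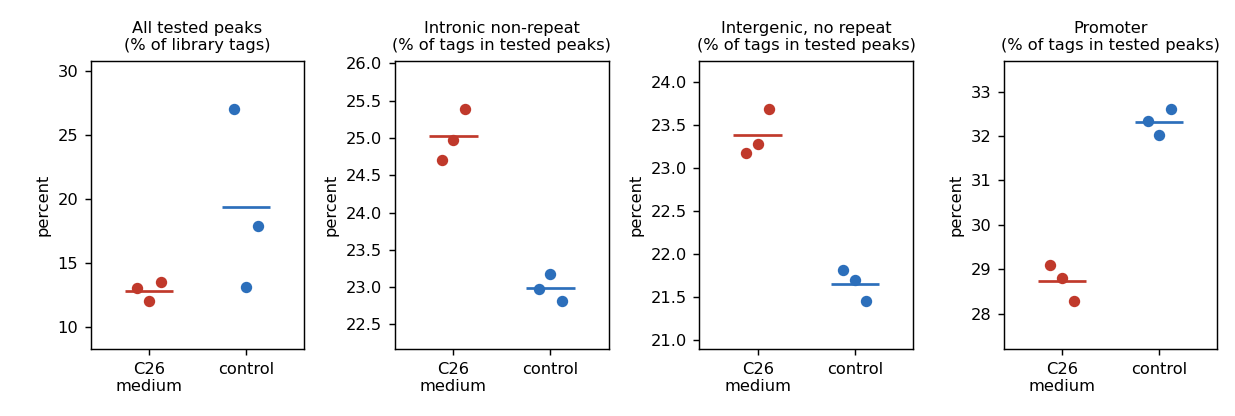
Percent of library tags in all tested peaks (leftmost panel, y axis), where the groups overlap. The other panels give the share of the tags in tested peaks (percent, y axis) that fell in intronic non-repeat, intergenic and promoter peaks. There is 1 point per library, C26 medium left of control. The 3 C26 medium libraries sit between 24.71% and 25.39% for intronic non-repeat peaks, above the control libraries at 22.81% to 23.17%, and below the control libraries for promoter peaks.

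On the library-tag scale, 130 of the 10800 intronic non-repeat peaks were called higher (1.2%) and 212 lower (1.96%) after C26 medium, with limma and Benjamini-Hochberg adjustment over all peaks at 0.05. Over all tested peaks the shares called were 1.15% higher and 1.88% lower, so these counts were near the background. The median log2 difference was -0.41, against -0.54 over all tested peaks. These counts turned on single libraries. Without control replicate 1 they were 681 higher and 614 lower, and without control replicate 2 they were 227 higher and 4347 lower. Leaving out control replicate 3 gave 36 higher and 8 lower, and leaving out C26 medium replicate 1, 2 or 3 gave 24 higher and 11 lower, 34 and 9, and 24 and 15. No count on this scale is therefore more than a description of the 6 libraries together.

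Relative to other peaks, far more intronic peaks opened than closed. With median-of-ratios scaling 2447 were called higher (22.7%) and 894 lower (8.28%), where 17.0% and 12.7% of all tested peaks were called. Together these were 3341 peaks, and over all tested peaks 29.8% were called in either direction. The edgeR quasi-likelihood test on recovered read ends called 2522 higher (23.4%) and 895 lower (8.29%), where 17.6% and 12.8% of all tested peaks were called. The median log2 difference was 0.10 with median of ratios, against -0.02 over all tested peaks, and 6474 of the intronic peaks lay above zero (59.9%), against 17895 of all tested peaks (47.9%). Leaving out each library in turn gave 1970 to 2193 higher and 670 to 789 lower on this scale. The difference between the intronic peaks and the rest was not tested. Whether rises outnumbered falls on the library-tag scale depended on the library left out, as the counts above show. Only 2216 of the intronic peaks lay above zero on that scale (20.5%), against 5868 of all tested peaks (15.7%).

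**Figure D2:**
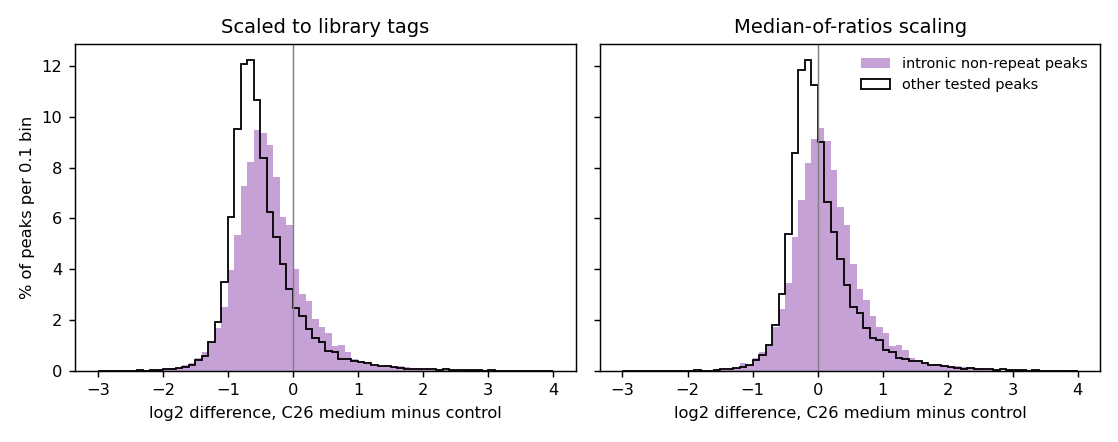
Distribution of the log2 difference (C26 medium minus control, x axis) as percent of peaks per bin (y axis) for intronic non-repeat peaks and for the other tested peaks, with library-tag scaling in one panel and median of ratios in the other. The intronic peaks centre at -0.41 and 0.10 on the 2 scales, to the right of all tested peaks at -0.54 and -0.02.

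In the peak calls of single libraries, calls limited to a single group lay near the shares of all tested peaks. Of the intronic non-repeat peaks, 5741 had been called in all 6 libraries (53.2%), against 22694 of all tested peaks (60.7%). Another 308 (2.85%) had been called in C26 medium libraries and in no control library, against 868 of all tested peaks (2.32%). Conversely, 215 (1.99%) had been called in control libraries and in no C26 medium library, against 637 of all tested peaks (1.71%). The intronic peaks were also somewhat narrower and weaker, with a median width of 461 bp and a median mean of 25.7 tags, against 522 bp and 30.1 tags over all tested peaks.

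Intron number was split next, because first introns lie close to promoters and often carry regulatory sequence. In intron 1, 833 of 3905 peaks were called higher by median of ratios (21.3%) and 339 lower (8.68%). In intron 2, 467 of 1937 were called higher (24.1%) and 135 lower (6.97%). In intron 3, 247 of 1130 were called higher (21.9%) and 92 lower (8.14%), and in intron 4 and later, 900 of 3828 were called higher (23.5%) and 328 lower (8.57%). On this scale the 4 classes thus lay within a narrow range, and all held more rises than falls. The last intron of genes with at least 2 introns was alike, with 203 of 788 higher (25.8%) and 66 lower (8.38%). With library-tag scaling intron 1 had 29 higher (0.743%) and 62 lower (1.59%), and later introns 101 higher (1.46%) and 150 lower (2.18%), where 1.15% and 1.88% of all tested peaks were called. The share called higher was thus lower in intron 1 than in later introns on that scale, a difference that was not tested. Peaks in intron 1 took 38.08%, 38.15% and 38.07% of the tags in intronic non-repeat peaks in C26 medium libraries, against 38.81%, 39.01% and 38.86% in control libraries, again with no overlap.

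With median of ratios, shares called differed more with distance from the nearest gene start than with intron number. Peaks within 5 kb of a start were called higher by median of ratios in 297 of 1790 cases (16.6%) and lower in 197 (11.0%). At 5 to 50 kb 1368 of 5972 were called higher (22.9%) and 468 lower (7.84%), and at 50 kb or more 782 of 3038 were called higher (25.7%) and 229 lower (7.54%). Within 5 kb the shares by median of ratios were near those of all tested peaks. Beyond it rises outnumbered falls on that scale about as they did among all intronic peaks. Intron 1 peaks within 5 kb had 15.8% higher and 12.0% lower, but those at 5 to 50 kb had 24.1% and 7.07%, and those at 50 kb or more 23.6% and 7.09%. Peaks in later introns had 18.5% higher and 8.58% lower within 5 kb, 22.2% and 8.28% at 5 to 50 kb, and 26.1% and 7.61% at 50 kb or more. Of the 278 peaks that overlapped a RefSeq start window, 25 were called higher (8.99%) and 48 lower (17.3%), the opposite balance to that of the intronic peaks as a whole. On the library-tag scale falls outnumbered rises in each distance class, where 1.15% and 1.88% of all tested peaks were called higher and lower. Within 5 kb 0.503% were called higher and 1.73% lower. At 5 to 50 kb the shares were 1.19% and 1.98%, and at 50 kb or more 1.65% and 2.07%.

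Other classes of peaks lined up in the same way with median of ratios. Intronic peaks that hold a repeat had 23% of 1857 called higher and 7.11% lower, and intergenic peaks without a repeat or CpG island had 23.4% of 10197 called higher and 10.2% lower. Intronic peaks with a CpG island had 1.5% of 935 called higher and 22.1% lower, close to promoter peaks, with 2.31% of 7744 higher and 21.7% lower. Peak strength differs between these classes, so the intronic peaks were also set beside all other peaks at like strength. At mean values of 5 to 20 tags 21.2% were called higher and 4.85% lower, against 19.0% and 4.99% of other peaks. At 20 to 50 tags the shares were 23.7% and 8.62%, against 16.1% and 11.8% of other peaks. At 50 tags or more they were 23% and 13.6%, against 9.28% and 26.5% of other peaks, so the gap was widest among strong peaks, where the other peaks lay at a median of 241 bp from a start and the intronic ones at a median of 19600 bp. Host genes annotated as noncoding held 636 of the peaks, with 23.4% called higher and 9.43% lower, close to the 22.6% and 8.2% in coding genes. On the library-tag scale falls outnumbered rises in intronic peaks with a repeat (1.08% higher and 1.67% lower). They did so too in intergenic peaks (1.83% and 2.66%) and promoter peaks (0.0517% and 0.968%). Intronic non-repeat peaks of 5 to 20 tags had 2.2% higher and 1.97% lower on that scale. Those of 20 to 50 tags had 0.902% and 2.08%, and those of 50 or more 0.092% and 1.7%.

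**Figure D3:**
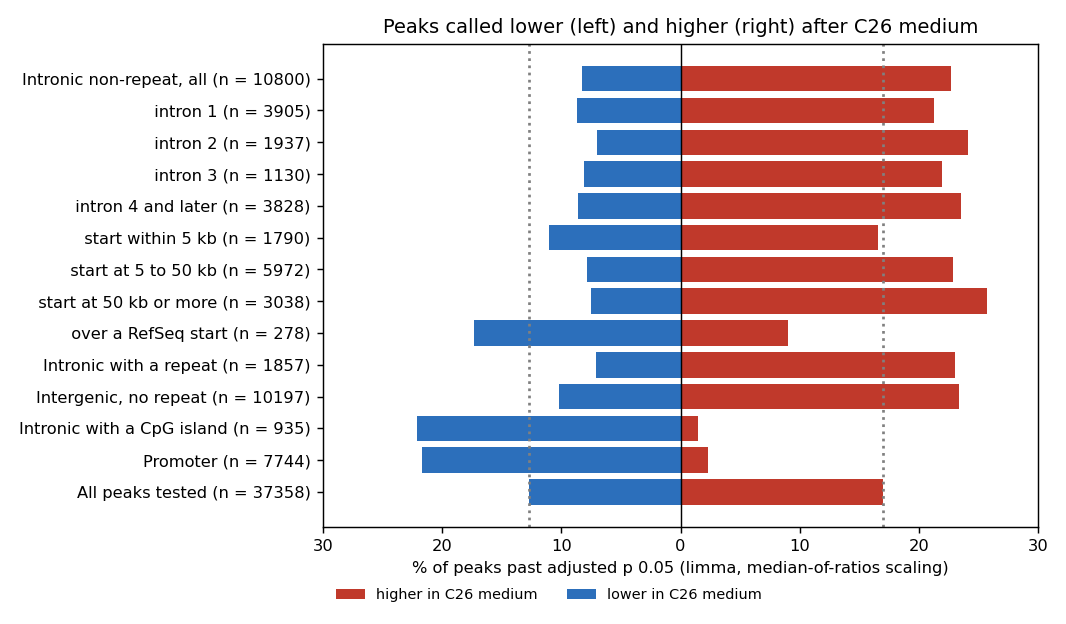
Share of peaks called higher (right) and lower (left) after C26 medium with median-of-ratios scaling, as percent of the peaks in each class (x axis), with dotted lines at the shares of all tested peaks (17.0% and 12.7%). Intronic classes far from a start resemble intergenic peaks, and peaks over a RefSeq start or a CpG island lean to the left.

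The 10 largest rises among called peaks with no overlap between groups had all been called as peaks in the 3 C26 medium libraries and in no control library. The steepest lay in intron 2 of 2 of Pid1, whose product dampens insulin signalling (chr1:84145632-84146011). It had 30.0, 20.8 and 29.1 tags in C26 medium libraries, against 2.68, 3.38 and 0 tags in control libraries, where 0 read ends allow up to 1.48 tags. The log2 difference was 3.44 ± 0.48 SE (adjusted p = 6.07e-09) on the library-tag scale and 3.82 with median of ratios. The next lay in intron 8 of 8 of Fto, an RNA demethylase gene whose introns are known to hold enhancers of Irx3 (chr8:91560109-91560493, 241353 bp from the start of Irx3). Its values were 37.1, 26.4 and 40.7 tags in C26 medium libraries, against 8.94, 1.69 and 0.49 tags in control libraries (log2 3.36 ± 0.46 SE, adjusted p = 1.42e-09).

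A peak in intron 38 of 44 of Ptprq, a receptor phosphatase gene next to the myogenic factor genes Myf6 and Myf5 whose enhancers in mouse are spread over that region, lay 41885 bp from the start of Myf6 (chr10:107536410-107536807). It had 33.2, 24.6 and 36.3 tags in C26 medium libraries, against 8.04, 1.69 and 2.97 tags in control libraries (log2 2.80 ± 0.45 SE, adjusted p = 1.03e-06). The smallest p in intron 1 belonged to Afap1l2, an actin-associated adaptor gene, 5329 bp from its start (chr19:57002906-57003586). That peak had 57.8, 48.9 and 58.5 tags in C26 medium libraries, against 10.3, 5.4 and 12.9 tags in control libraries (log2 2.48 ± 0.41 SE, adjusted p = 1.62e-06). Every C26 medium library was thus several times above every control library at both sites.

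The other large rises were in Atp8b4 (intron 6 of 27, a lipid flippase, log2 3.02), Pld1 (intron 11 of 26, phospholipase D1, log2 2.85), 1700012I11Rik (intron 5 of 8, log2 2.80) and Gm29719 (intron 1 of 11, log2 2.80). Further ones were in Adgrv1 (intron 85 of 89, an adhesion G protein-coupled receptor, log2 2.76), Fgf14 (intron 3 of 4, an intracellular member of the fibroblast growth factor family, log2 2.69) and Lix1l (intron 2 of 5, log2 2.65). Their adjusted p-values ran from 2.9e-07 for 1700012I11Rik to 7.33e-05 for Pld1. All 10 rises remained called when any of the 6 libraries was left out, on either scale. They were picked as the largest in these same libraries, so this describes them and is no separate support. At a mean of at least 20 tags only 1 of the 10 remained called, since the others average less.

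The 10 largest falls had all been called as peaks in the 3 control libraries. The steepest was in intron 1 of 7 of Nkd1, an inhibitor of WNT signalling that binds Dishevelled, 28123 bp from its start (chr8:88555451-88556061). It had 6.24, 6.25 and 4.12 tags in C26 medium libraries, against 45.1, 32.7 and 35.6 tags in control libraries (log2 -2.58 ± 0.43 SE, adjusted p = 3.1e-06). With median of ratios the difference was -2.09, still with no overlap. In intron 1 of 32 of Rptor, which encodes the raptor subunit of the growth kinase complex mTORC1, a peak (chr11:119650567-119650869) had 2.73, 4.86 and 1.65 tags in C26 medium libraries, against 30.4, 11.8 and 13.4 tags in control libraries (log2 -2.21 ± 0.48 SE, adjusted p = 0.00114).

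The other falls had log2 differences of -2.28 to -2.02. Col8a1, a short-chain collagen, had 2.34, 6.25 and 3.57 tags in intron 1 of 3 in C26 medium libraries, against 21.5, 16.5 and 23.2 tags in control libraries (log2 -2.14, adjusted p = 0.00107). Ror1, a receptor for WNT5A, had 4.29, 3.47 and 6.59 tags in intron 8 of 8 in C26 medium libraries, against 29.5, 15.2 and 24.7 tags in control libraries (log2 -2.05, adjusted p = 0.00147). Rbms3, an RNA-binding protein gene, held the strongest of the 10, in intron 4 of 14, with 23.4, 13.9 and 19.0 tags in C26 medium libraries, against 132, 57.0 and 79.1 tags in control libraries (log2 -2.14, adjusted p = 1.82e-05). It was the sole one of the 10 that had been called as a peak in all 6 libraries. The rest lay in Tg (thyroglobulin, intron 32 of 47, log2 -2.28), Lmo7 (an adaptor of cell junctions, intron 1 of 30, log2 -2.14), Cpped1 (a phosphatase, intron 1 of 3, log2 -2.07), Tmcc3 (intron 1 of 3, log2 -2.04) and Astn2 (intron 20 of 22, log2 -2.02).

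On the library-tag scale 6 of the 10 falls remained called without control replicate 3 and 6 without C26 medium replicate 2, and 8 and 7 without C26 medium replicates 1 and 3. With median of ratios all 10 remained called whichever library was left out. The falls too were picked by their values in these same libraries. Of the falls, 6 were in intron 1 (Nkd1, Rptor, Col8a1, Lmo7, Cpped1 and Tmcc3), against 1 of the 10 rises (Gm29719). Intron 1 held 36.2% of all intronic non-repeat peaks. On the library-tag scale it held 29 of the 130 peaks called higher and 62 of the 212 called lower. The lists were cut by size, so the 6 against 1 is a description of those 20 peaks.

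**Figure D4:**
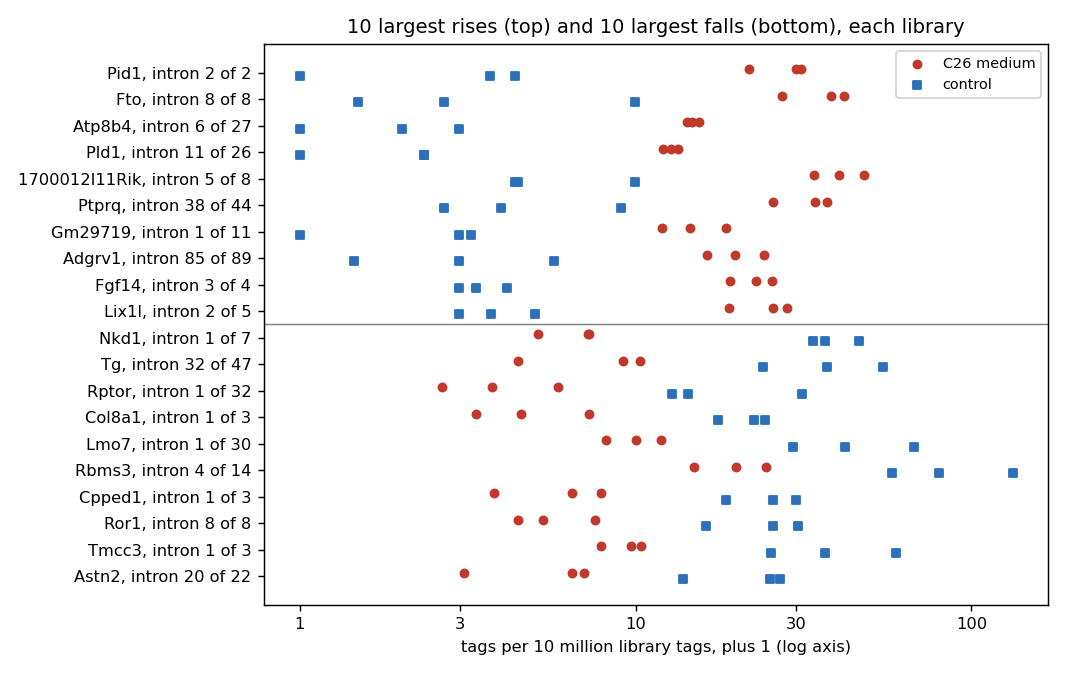
Tags per 10 M library tags plus 1 (x axis, log) for the 10 largest rises and 10 largest falls, 1 point per library in C26 medium or control. Control values at the rises lie near or below 9 tags, and the points of the 2 groups do not overlap at any of the 20 peaks.

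Genes of the contractile apparatus held 32 of the peaks, in 14 of the 42 genes listed. Library-tag scaling called 0 higher and 2 lower, and with median of ratios 5 were called higher and 3 lower (15.6% and 9.38%, median log2 0.03). By median of ratios 17.0% of all tested peaks were called higher and 12.7% lower. Of the intronic non-repeat peaks, from which every list here is drawn, 22.7% were called higher and 8.28% lower. These are the shares against which each list can be read. In this list the share called higher lay below both, and the share called lower lay between them. The falls included a strong peak in intron 2 of 12 of Pdlim7, a Z-disc adaptor, with 97.6, 85.7 and 111 tags in C26 medium libraries, against 273, 152 and 206 tags in control libraries (log2 -1.06, adjusted p = 0.0442). Its relative Pdlim5 fell too (intron 3 of 14, log2 -1.33, adjusted p = 0.046). Neb, which encodes the thin-filament ruler nebulin, moved the other way in intron 10 of 156, with 88.2, 85.4 and 87.1 tags in C26 medium libraries, against 61.7, 32.7 and 36.1 tags in control libraries. That rise passed with median of ratios (log2 1.56, adjusted p = 1.42e-15) and not on the library-tag scale (log2 1.04, adjusted p = 0.0805), and the same held for a second Neb peak in intron 9 (log2 1.42 and 0.91).

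Myogenic factors and the MEF2 pathway held 53 peaks in 13 of 24 genes, of which 18 were called higher and 3 lower with median of ratios (34.0% and 5.66%, median log2 0.22), and 1 and 1 on the library-tag scale. The class IIa deacetylases, which bind and repress MEF2, moved unevenly. Hdac4 rose in intron 1 of 26, with 16.8, 17.4 and 14.8 tags in C26 medium libraries, against 9.38, 1.35 and 3.46 tags in control libraries (log2 1.86, adjusted p = 0.00913). Hdac9 fell in intron 24 of 27, at a peak whose nearest start is that of Twist1, with 6.63, 3.82 and 7.97 tags in C26 medium libraries, against 34.9, 10.1 and 17.3 tags in control libraries (log2 -1.49, adjusted p = 0.0405). Hdac5 rose in intron 3 of 27 with median of ratios alone (log2 1.15, adjusted p = 8.25e-10, against 0.62 and 0.23 on the library-tag scale). Tead1, a partner of YAP at muscle genes, fell in intron 1 of 13 with median of ratios alone (log2 -0.69, adjusted p = 0.00726).

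Calcium handling genes held 74 peaks in 21 of 29 genes, with 24 called higher and 3 lower by median of ratios (32.4% and 4.05%, median log2 0.26) and 1 and 0 on the library-tag scale. Camk2a, the alpha chain of a calcium-dependent kinase, rose on both scales in intron 1 of 17, with 35.1, 30.9 and 27.5 tags in C26 medium libraries, against 19.7, 6.41 and 10.4 tags in control libraries (log2 1.41, adjusted p = 0.0329). By median of ratios the inositol trisphosphate receptor gene Itpr2 rose in intron 2 of 56 (log2 1.20, adjusted p = 7.2e-10), and its relative Itpr1 fell in intron 44 of 61 (log2 -0.34, adjusted p = 0.00364). Nfatc1, a calcineurin-dependent factor, rose on that scale in intron 6 of 9 (log2 0.94, adjusted p = 4.88e-10).

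The dystrophin complex and adhesion genes held 120 peaks in 25 of 28 genes, with 30 called higher and 4 lower by median of ratios (25% and 3.33%, median log2 0.15) and 1 and 1 on the library-tag scale. Itgb1, the common beta integrin chain, rose in intron 1 of 15, with 15.6, 13.9 and 15.7 tags in C26 medium libraries, against 5.81, 3.04 and 2.47 tags in control libraries (log2 1.81, adjusted p = 0.013). Sgcd, the delta-sarcoglycan of the dystrophin complex, fell in intron 6 of 7, with 13.3, 11.8 and 14.8 tags in C26 medium libraries, against 57.2, 23.6 and 46.0 tags in control libraries (log2 -1.51, adjusted p = 0.0148). Passing with median of ratios alone, Dtnb (beta-dystrobrevin, intron 10 of 18, log2 1.39) and Lpp (an adhesion plaque protein, intron 10 of 12, log2 1.48) rose and Itgb5 fell (intron 2 of 14, log2 -0.69).

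Atrophy ligases and the FOXO, AKT and mTOR pathway held 46 peaks in 16 of 34 genes, with 14 called higher and 3 lower by median of ratios (30.4% and 6.52%, median log2 0.27). Library-tag scaling gave 0 higher and 2 lower, the Rptor fall given above among them. Akt1 fell with median of ratios alone, 826 bp from its start (log2 -0.74, adjusted p = 0.00504). Nedd4l, a ubiquitin ligase, rose with median of ratios alone at intron 24 of 29 (log2 0.95, adjusted p = 3.23e-07) and at intron 1 of 30 (log2 1.28, adjusted p = 1.28e-06). The IGF and insulin list held 26 peaks in 12 of 24 genes, with 3 called higher and 4 lower by median of ratios (11.5% and 15.4%, median log2 0.12) and 1 and 1 on the library-tag scale.

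Igf1 itself, the growth factor that acts through those kinases, gained a peak in intron 2 of 4, 24633 bp from its start (chr10:87885422-87886066). It had 22.6, 30.2 and 25 tags in C26 medium libraries, against 12.5, 0.68 and 7.41 tags in control libraries, with no overlap (log2 2.22 ± 0.45 SE, adjusted p = 0.000285). Igf2bp3, an RNA-binding protein gene, fell in intron 8 of 14 (log2 -1.56, adjusted p = 0.0208). A peak in the single intron of Irs2, an insulin receptor substrate, fell with median of ratios alone (log2 -0.69, adjusted p = 0.0312, with overlap between the groups). No intronic non-repeat peak had Ddit4, the gene of REDD1 named in the study's title, as host or as nearest start.

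The IL-6, STAT3 and SOCS list held 18 peaks in 9 of 26 genes, with 0 called by limma on the library-tag scale (3 at an unadjusted p under 0.05) and 6 higher and 0 lower with median of ratios (33.3%, median log2 0.21), as with edgeR. Those 3 had negative differences on the library-tag scale, at -0.74 for Bcl3, an NF-kB cofactor, -0.87 for intron 19 of Stat3 and -0.69 for the kinase gene Pim3 (adjusted p = 0.152, 0.157 and 0.159), and were not called with median of ratios either. Stat3 is the main effector of IL-6, and its peak in intron 1 of 23 went the other way and rose with median of ratios (log2 0.73, adjusted p = 0.000606, against 0.21 and 0.701 on the library-tag scale). The NF-kB and cytokine list held 24 peaks in 12 of 26 genes, with 1 higher and 0 lower on the library-tag scale and 8 and 0 with median of ratios (33.3% higher, median log2 0.27). Tnfrsf1b, a receptor for tumour necrosis factor, rose on both scales in intron 8 of 9, with 30.8, 25.7 and 32.7 tags in C26 medium libraries, against 8.94, 9.11 and 12.9 tags in control libraries (log2 1.45, adjusted p = 0.0281). Nfkb1 rose in intron 6 of 24 with median of ratios alone (log2 0.89, adjusted p = 3.71e-06). The AP-1 and immediate early list held 4 peaks, with 0 called by limma on the library-tag scale (1 at an unadjusted p under 0.05). A peak in intron 1 of 2 of Mafk, a small MAF factor, was called higher with median of ratios (log2 0.40, adjusted p = 0.0145), and on the library-tag scale its difference was -0.12.

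The TGF-beta, activin and BMP list held 92 peaks in 20 of 40 genes, with 25 called higher and 4 lower by median of ratios (27.2% and 4.35%, median log2 0.08) and 2 and 1 on the library-tag scale. Tgfbr3, the co-receptor betaglycan, rose on both scales in intron 2 of 16, with 71.8, 69.4 and 66.8 tags in C26 medium libraries, against 42.9, 17.2 and 24.7 tags in control libraries (log2 1.36, adjusted p = 0.0209). A peak in its intron 1 rose with median of ratios alone (log2 1.67, adjusted p = 2.26e-11). Bmper, a secreted BMP-binding protein, rose in its last intron (intron 14 of 14, log2 1.49, adjusted p = 0.0458), and Acvr1, a type I BMP receptor, fell in intron 2 of 10 (log2 -1.29, adjusted p = 0.0497).

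The WNT list held 45 peaks in 16 of 34 genes, with 17 called higher and 5 lower by median of ratios (37.8% and 11.1%, median log2 0.24) and 0 and 2 on the library-tag scale. Those 2 are the Nkd1 and Ror1 falls described above. The secreted Dickkopf genes Dkk3 and Dkk2 split with median of ratios: Dkk3 rose in intron 2 of 7 (log2 1.26, adjusted p = 1.05e-10) and Dkk2 fell in intron 1 of 3 (log2 -0.88, adjusted p = 0.0209). Neither passed on the library-tag scale (adjusted p = 0.171 for Dkk3 and 0.0632 for Dkk2).

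Matrix genes were the list nearest to balance among those with over 50 peaks. They held 91 peaks in 26 of 44 genes, with 16 called higher and 13 lower by median of ratios (17.6% and 14.3%, median log2 -0.02) and 1 and 4 on the library-tag scale. Collagens made up the named falls. Besides Col8a1, Col6a2 fell in intron 27 of 27, with 11.7, 9.02 and 11.0 tags in C26 medium libraries, against 55, 26 and 34.1 tags in control libraries (log2 -1.71, adjusted p = 0.00489). Col4a1, a basement membrane collagen, fell in intron 1 of 52 at a peak whose nearest start is that of Col4a2 (log2 -1.44, adjusted p = 0.0276). Timp3, an inhibitor of matrix proteases, rose on both scales in intron 1 of 4 (log2 1.40, adjusted p = 0.0413), and Fbn1, the microfibril protein fibrillin-1, rose with median of ratios alone in intron 49 of 65 (log2 1.48, adjusted p = 5.96e-09).

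RUNX, TEAD and related growth factors held 121 peaks in 28 of 41 genes, with 25 called higher and 11 lower by median of ratios (20.7% and 9.09%, median log2 0.14) and 1 and 4 on the library-tag scale. Runx3 rose in intron 3 of 4, with 34.0, 27.8 and 42.9 tags in C26 medium libraries, against 14.7, 6.08 and 8.9 tags in control libraries (log2 1.77, adjusted p = 0.00362). Foxp1, a forkhead repressor, fell in intron 1 of 18, with 6.63, 4.51 and 7.42 tags in C26 medium libraries, against 49.6, 12.5 and 32.6 tags in control libraries (log2 -2.01, adjusted p = 0.0012).

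Genes of the methionine cycle, folate metabolism and methylation, which the study's title concerns, held 18 peaks in 9 of 35 genes. None was called on the library-tag scale by limma (2 had an unadjusted p under 0.05), and with median of ratios, as with edgeR, 4 were called higher and 2 lower (22.2% and 11.1%, median log2 0.18). Mtap, the methionine salvage enzyme, rose in intron 1 of 7 with median of ratios, where its scaled values were 59.4, 46.4 and 50.4 tags in C26 medium libraries, against 29.5, 29.2 and 28.3 tags in control libraries (log2 0.82, adjusted p = 1.04e-05). Dnmt1, the maintenance DNA methyltransferase, rose on that scale in intron 1 of 38 (log2 0.94, adjusted p = 0.000149). Shmt2, which moves 1-carbon units into the folate pool, fell 286 bp from its start (log2 -0.54, adjusted p = 0.0185), and Tet3, a 5-methylcytosine oxidase, fell in intron 2 of 10 (log2 -0.42, adjusted p = 0.0194). Mtr, methionine synthase, did not pass on either scale (log2 -0.74 and -0.22, adjusted p = 0.19 and 0.37). On the library-tag scale the Mtap and Dnmt1 differences were 0.29 and 0.42 (adjusted p = 0.576 and 0.439).

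Smaller lists are given by their counts with median of ratios, where 22.7% of all intronic non-repeat peaks were called higher and 8.28% lower. For these lists edgeR gave the same counts except 3 lower for clock genes and 7 higher for metabolic genes. On the library-tag scale limma called 0 peaks of the stress, glucocorticoid, cell cycle, endothelial and epithelial, and fat and nerve lists, with 5, 0, 5, 2 and 2 at an unadjusted p under 0.05. Stress response and amino acid transport genes had 1 of 16 peaks higher and 2 lower, both lower ones in intron 1 of Nfe2l2, the oxidative stress factor NRF2 (log2 -0.41 and -0.43). Glucocorticoid receptor targets had 2 of 11 higher and 0 lower, in Klf9 (log2 0.86) and Errfi1 (log2 0.995), and the 2 Fkbp5 peaks named by the rule did not pass (log2 -0.25 and 0.0097). Circadian clock genes had 6 of 24 higher and 2 lower. Among them Per2 rose in intron 9 of 22 (log2 1.44) and Rora in intron 1 of 9 (log2 1.13), and Hlf (log2 -0.99) and Npas2 (log2 -0.49) fell. The Hlf fall, in intron 2 of 3, was the clock list's single call on the library-tag scale (log2 -1.49, adjusted p = 0.037).

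Metabolic genes had 6 of 38 peaks higher and 1 lower. The fall, called on both scales, was in intron 4 of 21 of the hexokinase gene Hk1, with 43.7, 43.0 and 51.9 tags in C26 medium libraries, against 155, 75.6 and 94.9 tags in control libraries (log2 -1.15, adjusted p = 0.0467), and Gbe1, glycogen branching enzyme, rose with median of ratios (log2 1.06). Cell cycle genes had 3 of 13 higher and 2 lower, the falls in intron 1 of Ccnd3 (log2 -0.64 and -0.52) and a rise in Cdk6 (log2 1.34). Blood genes had 2 of 5 higher and 0 lower (Runx3, which 2 lists share, and Csf1r), endothelial and epithelial genes 5 of 14 higher and 0 lower, 2 of them in Pecam1 (log2 1.12 and 0.54), and fat and nerve genes 1 of 12 higher and 0 lower, in Mbp. No promoter peak was found at the defining markers of those cell types, as stated above. Only 4 of the 10 muscle genes had one, so a missing promoter peak does not show which cells were present. Marker genes of blood held 3 intronic non-repeat peaks, those of endothelium 5, of epithelium 2, and of nerve and glia 2.

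**Figure D5:**
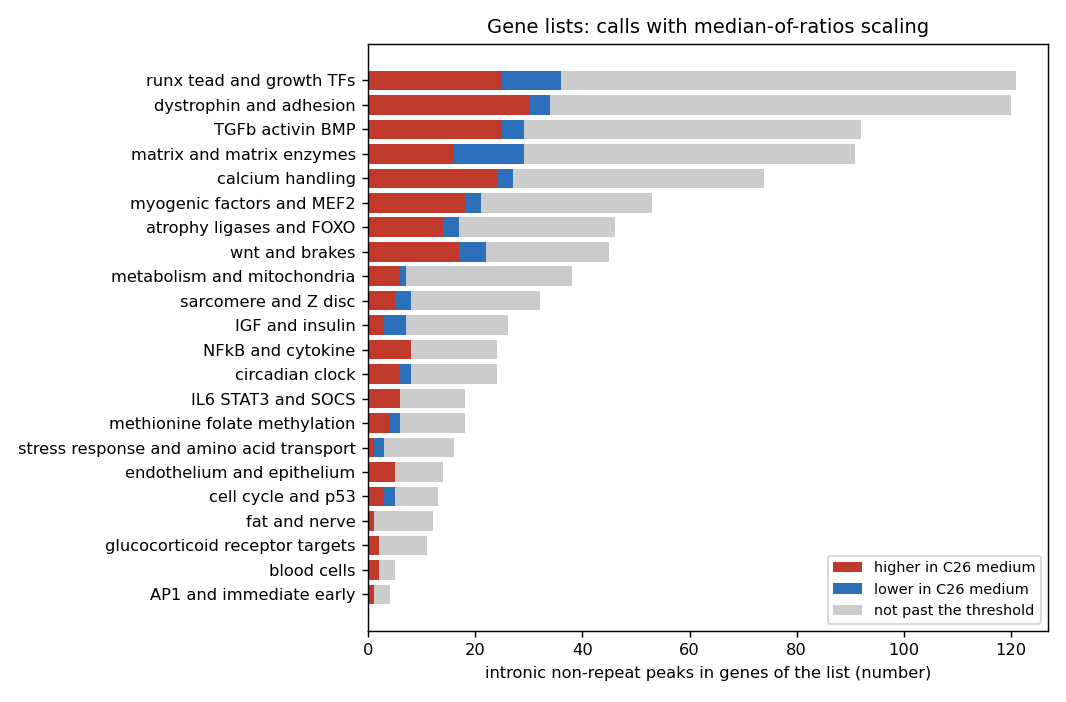
Number of intronic non-repeat peaks (x axis) in the genes of each list (y axis), split into peaks called higher, not called and called lower with median-of-ratios scaling. Most lists hold more rises than falls, as do the intronic non-repeat peaks as a whole (22.7% and 8.28%). The matrix list, with 16 higher and 13 lower, is near balance.

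Peaks were spread thinly over their host genes. Of the 4663 host genes 2539 held 1 such peak and 561 held 5 or more. Among those 561, 288 had some peaks higher and none lower, 62 some lower and none higher, 161 both, and 50 none, with median of ratios. On that scale 22.7% of the intronic non-repeat peaks were called higher and 8.28% lower, against 17.0% and 12.7% of all tested peaks. A gene with more peaks has more occasions to hold a call, and these counts were not set against an expected number. Lpp held the most, with 26 peaks over a gene of 599 kb, of which 5 were higher and 1 lower. Foxp1 followed with 22 (4 higher and 2 lower), and 6 genes held 19 each. Among these, Rad51b, a recombination factor gene, had 10 higher and 2 lower, and Mast4, a kinase gene, had 9 higher and 0 lower. Dlgap2, a synaptic scaffold gene, had 0 higher and 3 lower. The others were Septin9 (5 higher and 2 lower), Pakap (4 and 2) and Aopep (1 and 2). In Mast4 the peak with the smallest p, in intron 4 of 28, had 43.7, 51.0 and 49.2 tags in C26 medium libraries, against 21, 6.41 and 8.9 tags in control libraries (log2 2.06 ± 0.41 SE, adjusted p = 0.000172). Peaks of 1 gene share a locus and are not independent. For 3045 of the intronic peaks (28.2%) the nearest gene start was that of another gene, and 42 lay outside the listed span of the gene their transcript was matched to.

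Promoters of the host genes were read in the same libraries. Host genes of a higher intronic peak (median of ratios) had a promoter peak in 1068 cases, of which 52 were called higher (4.87%) and 220 lower (20.6%). Of 486 host genes of a lower intronic peak, 10 promoter peaks were called higher (2.06%) and 142 lower (29.2%). Over all 10147 genes with a promoter peak, 222 were called higher (2.19%) and 2215 lower (21.8%). Of 2499 host genes of an intronic peak that was not called, 56 promoter peaks were called higher (2.24%) and 487 lower (19.5%). Promoters called higher were few in every group, and the differences between the groups were not tested. Across 7382 intronic peaks whose host had a promoter peak (within 1000 bp of a start), the log2 differences of intron and promoter had a Spearman rho of 0.08. This is a description over peaks that share libraries and hosts. Intronic peaks can lie within that distance too, as in Akt1 (826 bp), so the window alone does not keep intron and promoter apart.

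RNA of the host genes was available from another model and another sample type, muscle of LLC mice. No gene passed limma at an adjusted p of 0.05 among 12981 tested (0.0%), so the host genes could not be sorted by that test. Of 3416 host genes tested, 242 were higher (7.08%) and 77 lower (2.25%) in LLC muscle at an unadjusted p under 0.05, against 755 (5.82%) and 236 (1.82%) of all genes. Host genes of intronic peaks called higher with median of ratios had 85 of 1202 higher and 28 lower, and those of peaks called lower had 46 of 550 higher and 20 lower. On the library-tag scale the counts were 6 higher and 3 lower of 78, and 9 higher and 8 lower of 129. Markers of other cell types were read in the same muscle libraries. Of the 4 endothelial markers, Pecam1, Cdh5 and Tie1 were above PBS in every LLC library and Kdr overlapped, and their summed level was 142 to 177 FPKM in LLC muscle, against 70.4 to 90.0 FPKM in PBS muscle, without overlap. Pecam1, an endothelial adhesion molecule, had 72.1, 81.3 and 91.8 FPKM in LLC muscle, against 35.0, 37.3 and 31.04 FPKM in PBS muscle (log2 1.22, limma adjusted p = 0.138). All 6 blood markers overlapped, with sums of 77.9 to 103 FPKM in LLC muscle, against 36.0 to 153 FPKM in PBS muscle. Among them Spi1 ran over 9.73 to 44.4 FPKM in LLC muscle and 4.43 to 49.99 FPKM in PBS muscle, and Csf1r over 20.6 to 22.2 FPKM in LLC muscle and 16.9 to 26.6 FPKM in PBS muscle. The 6 epithelial, 3 fat and 3 nerve and glia markers overlapped too, with sums of 1.67 to 20.3, 63.4 to 299 and 40.7 to 60.4 FPKM in LLC muscle, against 0.414 to 4.5, 67.4 to 105 and 37.7 to 68.3 FPKM in PBS muscle. No marker was listed at 0 in all 6 libraries, and the part of these cell types in the host gene values was not tested. In bulk muscle fewer cells of a type and less RNA per cell cannot be told apart.

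Of the 20 host genes of the largest rises and falls, 15 overlapped between the muscle groups, among them Fto, Nkd1, Rptor, Ror1 and Rbms3. The other 5 did not overlap (Pid1 and Col8a1 lower, Pld1, Lmo7 and Tmcc3 higher in LLC muscle), and none of the 5 passed the adjusted test. Among all genes tested, which average 1 FPKM or more, 13.4% did not overlap. Of the 15, Ptprq, 1700012I11Rik, Gm29719, Adgrv1, Fgf14, Nkd1, Ror1, Tg and Astn2 lay below that mean and were not tested. The 13.4% is therefore not a like measure for all 20 hosts. Pid1 had 5.14, 4.95 and 4.60 FPKM in LLC muscle, against 6.62, 7.22 and 5.52 FPKM in PBS muscle (log2 -0.33, adjusted p = 0.63). Tmcc3 had 9.49, 7.85 and 11.1 FPKM in LLC muscle, against 6.79, 6.07 and 4.44 FPKM in PBS muscle (log2 0.64, adjusted p = 0.483), and Afap1l2, the host of the smallest p in intron 1, had 3.62, 2.75 and 2.59 FPKM in LLC muscle, against 1.54, 2.07 and 1.70 FPKM in PBS muscle (log2 0.52, adjusted p = 0.488). Stat3 had 28.4, 35.8 and 29.5 FPKM in LLC muscle, against 18.0, 20.5 and 19.7 FPKM in PBS muscle (log2 0.66, adjusted p = 0.257). Col6a2 had 24.0, 15.9 and 16.2 FPKM in LLC muscle, against 41.0, 50.1 and 26.1 FPKM in PBS muscle (log2 -1.0, adjusted p = 0.443). Igf1 overlapped between groups, at 5.67, 3.82 and 7.53 FPKM in LLC muscle and 8.81, 6.90 and 4.50 FPKM in PBS muscle (adjusted p = 1.0).

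Of the 5 intronic non-repeat peaks with the highest means, 0 were called by limma on the library-tag scale (2 at an unadjusted p under 0.05) and 2 with median of ratios. The highest mean lay in intron 1 of 6 of Pisd-ps3, a pseudogene on an unplaced scaffold where reads of near-identical copies may gather, with 538, 507 and 460 tags in C26 medium libraries, against 864, 542 and 740 tags in control libraries. It was not called on either scale (log2 -0.49 and 0.047). Susd1 (intron 16 of 16) and Mb, the myoglobin gene (intron 1 of 3), were not called either, with log2 differences of -0.64 and -0.11 for Susd1 and -0.52 and 0.016 for Mb. Gnao1 fell in intron 3 of 7 with median of ratios alone (log2 -0.31, adjusted p = 0.00369), and Tmbim1 rose in intron 1 of 11 on that scale (log2 0.23, adjusted p = 0.0366) where its library-tag difference was -0.31. At the other end, the peaks just inside the mean of 5 tags were in Gpr176 (7.8, 6.94 and 5.49 tags in C26 medium libraries and 5.36, 1.35 and 3.46 tags in control libraries), Nhsl2 (4.29, 2.78 and 4.12 against 11.6, 5.4 and 4.94 tags) and Ezh2 (8.58, 7.29 and 10.2 against 1.79, 3.38 and 1.98 tags). Just outside lay peaks in Ugt1a6b (5.46, 3.47 and 4.67 against 11.2, 2.36 and 2.47 tags), Ncoa1 (3.51, 5.9 and 5.77 against 6.25, 2.7 and 5.44 tags) and Gm21190 (1.56, 7.98 and 5.49 against 0.89, 9.79 and 2.47 tags), in the same order of groups.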

How the data were processed

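ATAC values are signal, deposited as HOMER tags per peak scaled per library to a total of 10 M tags (per the file headers) for merged mm10 peaks. RNA values are FPKM made with HOMER by the authors, per the file headers. The submitters' processing notes also name HISAT2, Bowtie2, MACS2 and DESeq2. How duplicates, the Tn5 cut offset and peak thresholds were handled, and tool versions, is not given in any source used here.

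Log2 (value + 1) of all peaks with a mean of at least 5 tags was fitted with limma 3.58.1 (R 4.3.3, trend, two-sided, Benjamini-Hochberg, 0.05), and log2 (FPKM + 1) likewise for genes averaging 1 FPKM or more. ATAC values fell on steps of 0.5 tag of the library total for 100% of values (tolerance 0.1). Counts of read ends recovered from these steps went to edgeR 4.0.16 (TMM) and DESeq2 1.42.0. They came to 822075 to 1389761 read ends per library in the intronic non-repeat peaks. Limits from 0 use 3 read ends and cover counting error only. Scripts were tested on simulated data. Other tools were Python 3.11.15, pandas 2.3.3, numpy 2.4.6, scipy 1.17.1 and matplotlib 3.10.9.

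Fold changes on a log2 (value + 1) scale understate changes of low peaks. Named peaks were the 10 largest rises and 10 largest falls among called peaks without overlap, the 5 highest means, up to 3 peaks of smallest p per gene list, the smallest p per intron class and in the 5 genes with most peaks, and those at the mean of 5. Up to 2 per list with the smallest p under median of ratios were added after their values were seen, as were the 4 sequences. Members and lists were chosen with earlier results of these data known. Some peaks that this rule names are not reported here. Motifs under whole peaks were not searched, since no mm10 genome was used here.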

Additional observations from a re-analysis of the deposited data

How the results depend on the processing

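Intronic non-repeat peaks called (higher plus lower) numbered 342 on the library-tag scale, 3341 with median of ratios, 3275 after quantile normalization, 3417 with edgeR and 2401 with DESeq2. They numbered 765 without a trend, 852 at an adjusted p under 0.1, 142 without a filter and 136 at a mean of at least 20 tags. In the same order, rises were 130, 2447, 2109, 2522, 1868, 211, 197, 81 and 36, and falls 212, 894, 1166, 895, 533, 554, 655, 61 and 100. First-intron rises were 29, 833, 722, 855, 611, 53, 48, 18 and 7, and first-intron falls 62, 339, 425, 334, 189, 180, 232, 14 and 27. Later-intron rises were 101, 1614, 1387, 1667, 1257, 158, 149, 63 and 29, and later-intron falls 150, 555, 741, 561, 344, 374, 423, 47 and 73. The median log2 difference was -0.41 on the library-tag scale, 0.10 with median of ratios, 0.037 after quantile normalization, 0.12 with edgeR and 0.11 with DESeq2. Rises outnumbered falls with both edgeR and DESeq2, with either scaling between peaks and without a filter, and falls outnumbered rises in the other fits named here.

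Leaving out each library in turn, over both scales, gave 35 to 4574 called, 24 to 2193 rises, 8 to 4347 falls, 2 to 737 and 4 to 1649 in first introns, 21 to 1456 and 4 to 2698 in later introns, and a median of -0.66 to 0.12. The labels do not say whether replicate numbers pair the samples. Deviations of same-numbered libraries correlated at -0.017 to 0.0082, and those of differently numbered ones at -0.010 to 0.020. No shared deviation was thus seen, which does not settle whether cultures were paired. With the number as a replicate block 324 were called (127 rises and 197 falls), with 29 and 56 in first introns and 98 and 141 in later ones. The block with median of ratios, chosen after seeing the data, gave 3332 called, 2438 rises, 894 falls, 822 and 336 in first introns, 1616 rises and 558 falls in later ones, and a median of 0.10.

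Of the 119 named peaks 42 were called on the library-tag scale, and all 42 were also called with median of ratios, quantile normalization, edgeR and DESeq2. Of them 24 remained called without a filter, 13 at a mean of at least 20 tags and 18 to 42 when 1 library was left out. None of the 42 changed sign under any alternative, but they were picked by their values in these same libraries. Of the others, 10 changed sign in some fit. With median of ratios (also with the block), quantile normalization, edgeR and DESeq2, in that order, Tmbim1 went to 0.23, 0.37, 0.23 and 0.23, Mb to 0.016, 0.14, 0.023 and 0.019, Mafk to 0.40, 0.39, 0.44 and 0.42, and an Mbp peak to 0.025, 0.10, 0.049 and 0.039. With median of ratios, edgeR and DESeq2, Fkbp5 went to 0.0097, 0.012 and 0.0047 and Pisd-ps3 to 0.047, 0.049 and 0.043. Their ranges with 1 library left out were -0.50 to 0.28 (Tmbim1), -0.71 to 0.071 (Mb), -0.29 to 0.51 (Mafk), -0.73 to 0.12 (Mbp), -0.86 to 0.14 (Fkbp5) and -0.67 to 0.16 (Pisd-ps3). The ranges were -0.14 to 0.66 for Pecam1, -0.035 to 0.93 for another Mbp peak, -0.14 to 1.01 for Klf9 and -0.24 to 1.09 for Bach2. The cause was not tested.

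For RNA, 0 host genes of called peaks passed under any alternative, and 9 to 51 had an unadjusted p under 0.05. The part of chromatin outside the peaks in the shift between the scales was not tested, and 10.1 to 18.2 M tags per library limit weak peaks.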
